A study of Homo sapiens with 24 samples.

Results

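The mitochondrial genome of H2052 cells was followed through its 35 genes in the count files, all genes that the files place on chromosome MT, out of 57500 gene identifiers. They comprised 13 mRNAs and 22 tRNAs, and all 35 had counts; the rRNAs of the mitochondrial ribosome were not analysed here. H2052 is an established line from a human pleural mesothelioma, and it is the only cell line of the study. The study compared a miR-497-5p mimic with a scrambled mimic to find the transcripts that the microRNA holds and those that change in amount. The libraries fell into 8 groups of 3. Cells of 4 groups were transfected with miR-497-5p-RE, a custom microRNA mimic with biotin at its 3′ end, and cells of the other 4 groups, called Control, with a non-targeting mimic that also carried the biotin. Both were given at 20 nM with a lipid reagent for 12 h or 72 h. At each time the RNA caught by streptavidin beads from a cytoplasmic extract (Pull-down) and the input RNA (RNA-seq) were made into poly(A)-selected libraries. The labels leave the suffix RE unexplained. They also do not say whether a replicate is a culture of its own, so every p-value reflects the spread among these libraries, which may be technical.

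Human mitochondrial DNA is a small circle that codes for subunits of the respiratory chain and for the RNAs that translate them. POLRMT transcribes both strands into long precursors, and the tRNAs between the coding stretches are cut out to free the mRNAs, which then receive short poly(A) tails inside the organelle. LRPPRC with its partner SLIRP keeps those mRNAs stable. The products are subunits of complex I (ND genes), complex III (cytochrome b), complex IV (CO genes) and the ATP synthase (ATP genes). Each enzyme also needs subunits encoded in the nucleus, and growing tumour cells use the chain for ATP and for aspartate synthesis.

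Of the mRNA genes 12 lie on the plus strand of the reference and MT-ND6 alone on the minus strand. Of the tRNA genes 14 are on the plus and 8 on the minus strand. Whether counting used strand is not stated, so reads of MT-ND6 and the minus-strand tRNAs cannot be told apart from RNA of the opposite strand. Read pairs had 150 bases from each end and only uniquely placed ones were counted, so genes with near-identical nuclear copies are uncertain to the extent that reads fit both places. The pair MT-ND4L and MT-ND4 is kept on a single mRNA in human mitochondria and shares 7 bases, and the pair MT-ATP8 and MT-ATP6 is likewise joined and shares 46 bases (MT 8527 to 8572); how reads over shared bases were assigned is not stated. The first overlap is printed because its 2 genes differed in their response at 72 h; capitals mark the shared bases, which hold the start codon of MT-ND4 and the stop codon of MT-ND4L (chrM:10749-10777, plus strand, GRCh38).
MT-ND4L and MT-ND4: aacctactccaATGCTAAaactaatcgtc

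Several mitochondrial mRNAs end on an incomplete stop codon that the poly(A) tail completes, and for this reason 6 of 13 annotated lengths are no multiple of 3. The ends of MT-CO2 (chrM:8252-8269) and MT-ND4 (chrM:12120-12137), both on the plus strand, show the contrast, with the last codon or its first base in capitals.
MT-CO2: cccgtatttaccctaTAG
MT-ND4: ttaccgggttttcctctT

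The microRNA itself is shown with its seed, bases 2 to 8, in capitals (RefSeq, GRCh38, chr17:7017979-7017999, minus strand).
hsa-miR-497-5p: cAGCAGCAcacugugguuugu

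A search for the letters that pair with the seed found TGCTGCT in the sense strand of 0 of the 13 mRNAs and 22 tRNAs, and 2 times on the opposite strand of MT-ND5. The shorter GCTGCT, which TGCTGCT contains, occurred in the sense strand of MT-CO1 alone, at its base 607; on the opposite strand it occurred in MT-ND4L, MT-ND5 and MT-TC. In windows of 300 bases TGCTGCT was in 0 of 32 windows of the mitochondrial mRNAs and in 6.27% of 230312 windows of 19688 nuclear protein-coding transcripts, and GCTGCT was in 1 of 32 and in 16.5%. Only full windows were used, so MT-ATP8 (207 bases) and MT-ND4L (297 bases) gave none. The nuclear windows were not matched for base composition or for coding sequence. The MT-CO1 match is printed with its neighbourhood, the 6 letters in capitals (chrM:6498-6527, plus strand, GRCh38).
MT-CO1: ctcccagtcctaGCTGCTggcatcactata

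RNA-seq libraries held 21561816 to 30602007 counts and Pull-down libraries 8262425 to 30650982, the lowest being miR-497-5p-RE replicate 2 at 72 h. The lowest count of any mitochondrial mRNA in any library was 114. Counts of replicates differed by more than counting error in both assays, and edgeR's biological coefficient of variation was larger for the Pull-down (0.349) than for RNA-seq (0.0601), so smaller changes pass the test in RNA-seq. Of mesothelial markers, MSLN had 42.7 to 80.4 CPM (counts per library, put on 1 common total) in RNA-seq and WT1 8.79 to 24.0, while CALB2 had 0.622 to 2.16 and UPK3B 0.0759 to 0.603. The summed level of 13 squamous epithelial genes differed widely between 12 h libraries of the same mimic. In RNA-seq it was 587, 18.3 and 47.3 CPM in miR-497-5p-RE libraries and 478, 492 and 179.7 CPM in Control libraries. At 72 h it was at most 3.68 in every library, and 7 of the 13 genes were at 0 in all 3 libraries of each RNA-seq group.

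Counts on mitochondrial genes took a larger share of the RNA-seq libraries with miR-497-5p-RE than with Control, by a small step at 12 h and a larger one at 72 h. At 72 h the share was 8.51, 8.68 and 8.85% in miR-497-5p-RE libraries, against 6.01, 5.77 and 5.75% in Control libraries, a ratio of 1.49. At 12 h it was 4.27, 4.50 and 4.48% in miR-497-5p-RE libraries, against 4.12, 4.13 and 3.92% in Control libraries, a ratio of 1.09. The groups did not overlap at either time, and an exact permutation test, two-sided, gave p 0.1, the smallest that 3 against 3 allows. In bulk RNA a share cannot tell more mitochondrial RNA per cell from less nuclear RNA, or fewer cells of a type from less RNA in each.

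In the Pull-down the share was smaller throughout. It was 1.19, 1.25 and 1.16% in miR-497-5p-RE libraries at 72 h, against 0.826, 0.878 and 0.889% in Control libraries, again without overlap (ratio 1.39, exact permutation p 0.1). At 12 h it was 1.71, 1.22 and 1.59% in miR-497-5p-RE libraries, against 1.08, 1.37 and 2.03% in Control libraries. There the groups overlapped and the Control libraries spanned the whole range (exact permutation p 1).

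**Figure D1:**
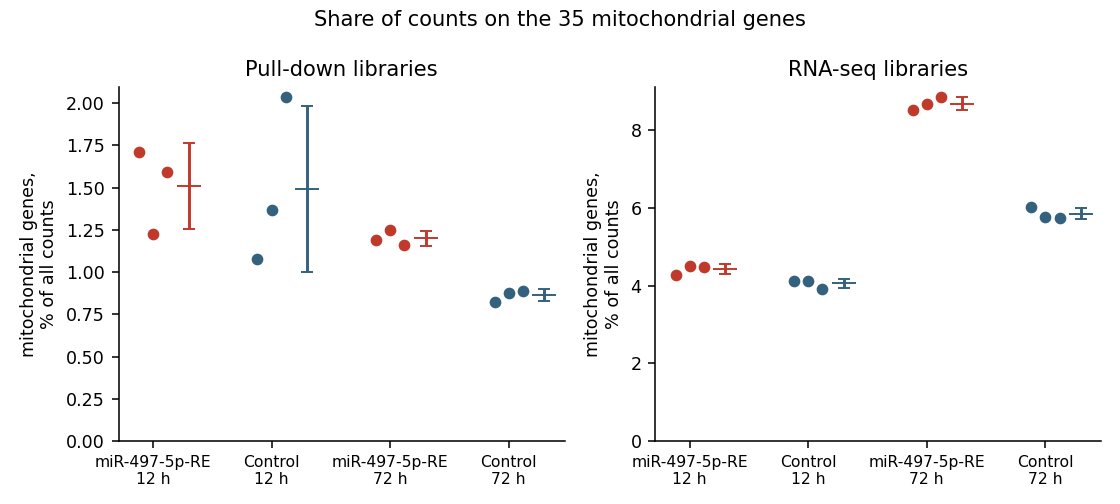
Share of all counts on the 35 mitochondrial genes, in percent, for each Pull-down library (left) and RNA-seq library (right); points are libraries, bars the mean ± SD of 3. At 72 h all miR-497-5p-RE libraries lie above all Control libraries in both assays, while the 12 h Pull-down groups overlap.

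In RNA-seq at 72 h, 12 of the 13 mRNAs were higher with miR-497-5p-RE, and all 12 had groups without overlap. The call was an adjusted p under 0.05 in edgeR's quasi-likelihood test, with Benjamini-Hochberg adjustment across the 17335 genes that passed the filter. Of all genes, 27.9% were called higher by the same rule and 31.6% had a higher miR-497-5p-RE group without overlap. The median log2 fold change of the 13 was 0.73, beside 0.00 over all genes. All 12 calls held on leaving out any 1 library and under each other scaling and tool tried. Values below are CPM with TMM scaling within RNA-seq, for replicates 1, 2 and 3, and log2 fold changes of miR-497-5p-RE over Control ± SE.

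Complex I takes electrons from NADH, and its mitochondrial subunits MT-ND1 to MT-ND6 form the proton-pumping membrane arm. MT-ND2 (ENSG00000198763, MT 4470 to 5511) had the largest log2 fold change of the 13 mRNAs, 1.11 ± 0.029 or 2.16-fold (adjusted p 6.88e-31). It had 5934, 5905 and 6029 CPM in miR-497-5p-RE libraries, against 2847, 2695 and 2718 CPM in Control libraries. Each miR-497-5p-RE library thus stood far above each Control library. MT-ND1 (ENSG00000198888, MT 3307 to 4262), whose product lies where the quinone binds, had 6608, 6576 and 6735 CPM in miR-497-5p-RE libraries, against 3900.2, 3710.1 and 3723 CPM in Control libraries (log2 fold change 0.81 ± 0.027, adjusted p 1.32e-28). MT-ND3 (ENSG00000198840, MT 10059 to 10404) had 702, 686 and 707 CPM in miR-497-5p-RE libraries, against 401, 368 and 378 CPM in Control libraries (log2 fold change 0.87 ± 0.095, adjusted p 4.11e-05). Both rose by between 1.5-fold and 2-fold, and the replicates of a group lay close together. MT-ND4 (ENSG00000198886, MT 10760 to 12137), a subunit with a proton channel, had 23092, 23466 and 23802 CPM in miR-497-5p-RE libraries, against 13908, 13366 and 13339.7 CPM in Control libraries (log2 fold change 0.79 ± 0.024, adjusted p 2.18e-30).

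The other complex I mRNAs moved less. MT-ND5 (ENSG00000198786, MT 12337 to 14148), at the far end of the arm, had 2275, 2318 and 2339 CPM in miR-497-5p-RE libraries, against 1868, 1728 and 1703 CPM in Control libraries (log2 fold change 0.39 ± 0.032, adjusted p 1.06e-13). MT-ND6 (ENSG00000198695, MT 14149 to 14673, minus strand) had 2500.4, 2521 and 2569 CPM in miR-497-5p-RE libraries, against 1679.6, 1556 and 1572 CPM in Control libraries (log2 fold change 0.66 ± 0.031, adjusted p 4.43e-21). Both rose without overlap. MT-ND4L (ENSG00000212907, MT 10470 to 10766), the shortest complex I mRNA, had 654, 664 and 669.8 CPM in miR-497-5p-RE libraries, against 660.1, 649.5 and 621 CPM in Control libraries. Its groups overlapped, and at 0.042 ± 0.041, adjusted p 0.401, it was the only mRNA not called, with a sign that turned to -0.065 under library totals. MT-ND4 on the same transcript rose 1.73-fold in these libraries.

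MT-CYB (ENSG00000198727, MT 14747 to 15887), cytochrome b and the one mitochondrial subunit of complex III, had 6421, 6548 and 6823 CPM in miR-497-5p-RE libraries, against 4134, 3859 and 3932 CPM in Control libraries. Its groups lay apart at a log2 fold change of 0.73 ± 0.027, adjusted p 1.14e-26. In complex IV, which reduces oxygen, MT-CO1 (ENSG00000198804, MT 5904 to 7445) carries the catalytic haem-copper centre. It had 25521, 26225 and 26511 CPM in miR-497-5p-RE libraries, against 18494, 17939 and 17812 CPM in Control libraries (log2 fold change 0.53 ± 0.023, adjusted p 2.38e-24). MT-CO2 (ENSG00000198712, MT 7586 to 8269), which accepts electrons from cytochrome c, had 8371, 8246 and 8535 CPM in miR-497-5p-RE libraries, against 4997, 4769.6 and 4804 CPM in Control libraries (log2 fold change 0.79 ± 0.026, adjusted p 7.81e-29). MT-CO3 (ENSG00000198938, MT 9207 to 9990), a structural subunit, had 9592, 9555 and 9643 CPM in miR-497-5p-RE libraries, against 7374, 7219 and 7065 CPM in Control libraries (log2 fold change 0.41 ± 0.026, adjusted p 1.55e-18). All 3 rose, with the log2 fold change of MT-CO2 close to that of MT-ND4 and that of MT-CO3 close to that of MT-ND5.

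For the ATP synthase, MT-ATP6 (ENSG00000198899, MT 8527 to 9207), which forms part of the proton path of the rotor, had 4080.3, 4092 and 4281 CPM in miR-497-5p-RE libraries, against 2371, 2192 and 2278 CPM in Control libraries (log2 fold change 0.86 ± 0.034, adjusted p 4.72e-18). MT-ATP8 (ENSG00000228253, MT 8366 to 8572), a small subunit beside it, had 222, 212 and 209 CPM in miR-497-5p-RE libraries, against 163, 149 and 141 CPM in Control libraries (log2 fold change 0.50 ± 0.089, adjusted p 0.000962). Both rose, the scarcer MT-ATP8 with an SE of 0.089 against 0.034 for MT-ATP6.

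**Figure D2:**
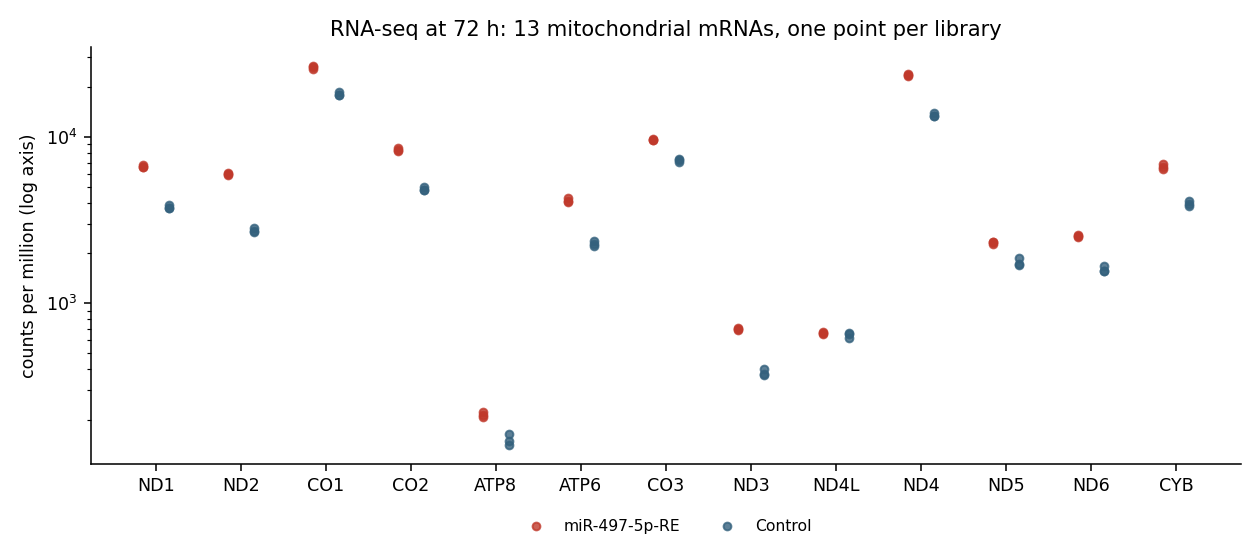
RNA-seq level of each mitochondrial mRNA at 72 h in CPM on a log axis, 1 point per library, miR-497-5p-RE left of Control, in genome order. The colours separate for every mRNA except MT-ND4L.

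At 12 h the same direction was present in RNA-seq with smaller steps: 10 of the 13 mRNAs were called higher and 10 had groups without overlap, with a median log2 fold change of 0.20 beside 0.01 over all genes. Of all genes 7.25% were called higher and 13.8% had a higher miR-497-5p-RE group without overlap. The number called was 6 under library totals or nuclear totals and 9 to 11 on leaving out 1 library, while 0 were called by a fit with the Pull-down libraries of that time, in which 0.0176% of all genes were called higher. MT-CO2 led with 3588, 3592 and 3589 CPM in miR-497-5p-RE libraries, against 2825, 2701 and 2638 CPM in Control libraries (log2 fold change 0.40 ± 0.026, adjusted p 1.14e-15). Its miR-497-5p-RE libraries were all above its Control libraries. MT-ND4L had 357, 404 and 404 CPM in miR-497-5p-RE libraries, against 286, 317 and 308 CPM in Control libraries (log2 fold change 0.36 ± 0.041, adjusted p 5.02e-07), and MT-ATP8 had 276, 307 and 296 CPM in miR-497-5p-RE libraries, against 245, 240.4 and 198 CPM in Control libraries (log2 fold change 0.36 ± 0.086, adjusted p 0.0276). Both groups lay apart, though the MT-ATP8 call ended without miR-497-5p-RE replicate 2 (adjusted p 0.0808) or 3 (adjusted p 0.0813). Among the called mRNAs MT-ND4, MT-ND2 and MT-ATP6 came next. MT-ND4 averaged 4591 ± 42.0 CPM in miR-497-5p-RE libraries and 3893 ± 80.0 CPM in Control libraries (SD, n = 3 each; log2 fold change 0.24 ± 0.024, adjusted p 3.12e-10 in edgeR).

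MT-ND2 averaged 1937 ± 83.0 CPM in miR-497-5p-RE libraries and 1648 ± 56.3 CPM in Control libraries at 12 h (log2 fold change 0.23 ± 0.029, adjusted p 8.93e-08 in edgeR), a smaller step than at 72 h. MT-ATP6 averaged 2569.5 ± 121 CPM in miR-497-5p-RE libraries and 2244 ± 90.1 CPM in Control libraries (log2 fold change 0.20 ± 0.034, adjusted p 0.000216). MT-CO3 averaged 4478 ± 175 CPM in miR-497-5p-RE libraries and 3963 ± 91.9 CPM in Control libraries (log2 fold change 0.18 ± 0.026, adjusted p 1.96e-06). These 3 passed the test, as did 3 more with log2 fold changes near 0.1. MT-CO1 averaged 15169.5 ± 252 CPM in miR-497-5p-RE libraries and 13983 ± 217 CPM in Control libraries (log2 fold change 0.12 ± 0.023, adjusted p 0.000231). MT-CYB averaged 2731 ± 50.6 CPM in miR-497-5p-RE libraries and 2523 ± 61.6 CPM in Control libraries (log2 fold change 0.11 ± 0.027, adjusted p 0.00263), and MT-ND1 averaged 2153 ± 27.3 CPM in miR-497-5p-RE libraries and 1993 ± 80.7 CPM in Control libraries (log2 fold change 0.11 ± 0.027, adjusted p 0.00315). Without Control replicate 3 the MT-ND1 call ended (adjusted p 0.0786). The 4 calls that ended under library totals and under nuclear totals were MT-ATP8 (adjusted p 0.0609 and 0.0611), MT-ATP6 (0.0821 and 0.0924), MT-CYB (0.117 and 0.105) and MT-ND1 (0.120 and 0.0970). The log2 fold changes of MT-CYB and MT-ND1 were then 0.065 and 0.062 under library totals and 0.071 and 0.067 under nuclear totals. The 3 mRNAs not called were MT-ND3, MT-ND5 and MT-ND6. MT-ND3 averaged 223 ± 17.1 CPM in miR-497-5p-RE libraries and 187 ± 25.2 CPM in Control libraries (log2 fold change 0.26 ± 0.096, adjusted p 0.143), and DESeq2 called it (adjusted p 0.0421). MT-ND5 averaged 1258 ± 46.4 CPM in miR-497-5p-RE libraries and 1185 ± 37.9 CPM in Control libraries (log2 fold change 0.086 ± 0.032, adjusted p 0.0691), a value that passed without Control replicate 2 or miR-497-5p-RE replicate 1. MT-ND6 averaged 1084 ± 17.2 CPM in miR-497-5p-RE libraries and 1054 ± 55.4 CPM in Control libraries (log2 fold change 0.041 ± 0.031, adjusted p 0.477), and its sign turned under both other scalings. The squamous genes named above differed widely between these libraries; their part in these values was not tested.

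Tested directly, the RNA-seq effect was larger at 72 h than at 12 h for 11 mRNAs and smaller for 1, where 22.5% and 26.2% of all genes were called larger and smaller. MT-ND2 (0.88 ± 0.041, adjusted p 9e-22) and MT-ND1 (0.70 ± 0.038, adjusted p 2.76e-20) differed most on the log2 scale. MT-ATP6 (0.67 ± 0.048), MT-ND6 (0.62 ± 0.044), MT-CYB (0.62 ± 0.039), MT-ND3 (0.61 ± 0.13) and MT-ND4 (0.56 ± 0.033) followed. MT-CO1 (0.41 ± 0.032), MT-CO2 (0.39 ± 0.036), MT-ND5 (0.30 ± 0.045) and MT-CO3 (0.23 ± 0.037) differed less but passed. MT-ATP8 did not pass (0.14 ± 0.12, adjusted p 0.397), except without 12 h Control replicate 3 (0.23, adjusted p 0.00376). MT-ND4L was the 1 mRNA whose effect was smaller at the later time (-0.31 ± 0.058, adjusted p 4.38e-05). These p-values are from edgeR's interaction of mimic and time.

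**Figure D3:**
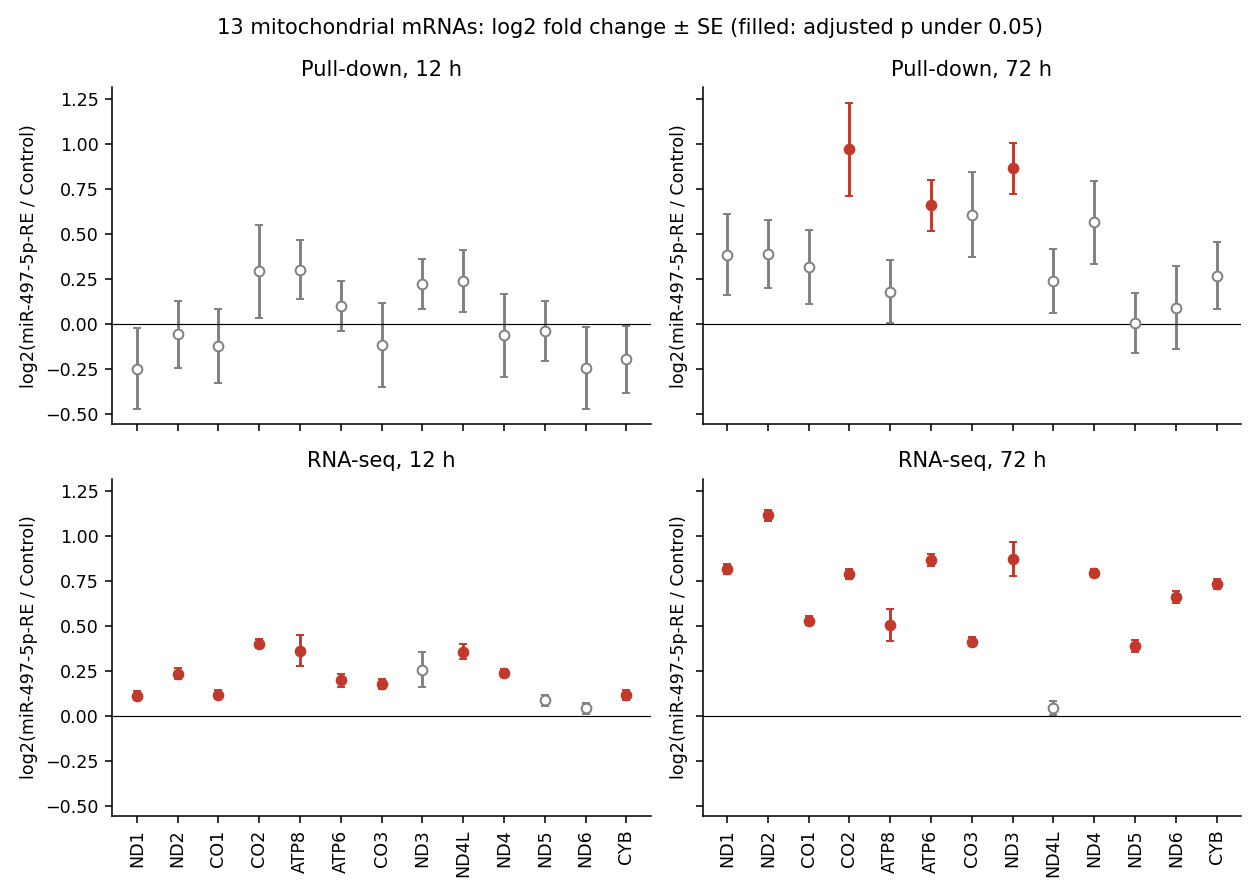
Log2 fold change of miR-497-5p-RE over Control ± SE for the 13 mRNAs in genome order, Pull-down above RNA-seq and 12 h left of 72 h, from edgeR; filled points have an adjusted p under 0.05. In RNA-seq 10 points are filled at 12 h and 12 at 72 h, in the Pull-down 0 and 3.

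The divergence of MT-ND4L from MT-ND4, with which it shares an mRNA, showed in single libraries. Counts of MT-ND4L as a percentage of those of MT-ND4 were 2.83, 2.83 and 2.81 in miR-497-5p-RE libraries at 72 h, against 4.75, 4.86 and 4.66 in Control libraries. At 12 h they were 7.85, 8.79 and 8.72 in miR-497-5p-RE libraries, against 7.32, 7.98 and 8.09 in Control libraries. The groups were apart at 72 h, with the lower values in miR-497-5p-RE libraries. At 12 h the groups overlapped, with a mean of 8.45 in miR-497-5p-RE libraries and 7.80 in Control libraries. In the other joined pair, MT-ATP8 counts at 72 h were 5.45, 5.18 and 4.87% of MT-ATP6 counts in miR-497-5p-RE libraries. In Control libraries they were 6.89, 6.81 and 6.19%. At 12 h the values were 11.4, 11.6 and 11.2% in miR-497-5p-RE libraries, against 10.7, 10.5 and 9.27% in Control libraries. The groups of this pair were apart at both times, lower with miR-497-5p-RE at 72 h and higher at 12 h. These ratios rest on counts of genes of unequal length with shared bases and are no ratios of molecules.

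Among the 13 mRNAs the make-up of the RNA-seq counts also differed by mimic at 72 h. MT-CO1 made up 26.8 ± 0.220% of the mitochondrial mRNA counts in miR-497-5p-RE libraries and 29.6 ± 0.174% in Control libraries (SD, n = 3 each). MT-ND4 made up 24.1 ± 0.0691% in miR-497-5p-RE libraries and 22.2 ± 0.0313% in Control libraries. MT-CO1 was thus the smaller part and MT-ND4 the larger part with miR-497-5p-RE. The same held for MT-ND2, at 6.12 ± 0.0526% in miR-497-5p-RE libraries and 4.51 ± 0.0304% in Control libraries, as for MT-ND4, and for MT-CO3, at 9.87 ± 0.121% in miR-497-5p-RE libraries and 11.8 ± 0.140% in Control libraries, as for MT-CO1. In RNA-seq, shares of 12 of the 13 mRNAs did not overlap between the mimics at 72 h. Each had an exact permutation p of 0.1, the smallest possible, and 0.108 adjusted over the 13. MT-ND6 was the exception, at 2.60 ± 0.00403% in miR-497-5p-RE libraries and 2.63 ± 0.0454% in Control libraries. Shares of a library add up to a fixed whole, so they do not change independently. In the Pull-down at 72 h MT-CO1 was again the smaller part with miR-497-5p-RE (31.9% against 34.2%) and MT-ND4 the larger (13.2% against 11.9%). There MT-CO3 was the larger part with miR-497-5p-RE (9.10% against 7.95%), and MT-ND2 overlapped (8.61% and 8.76%).

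**Figure D4:**
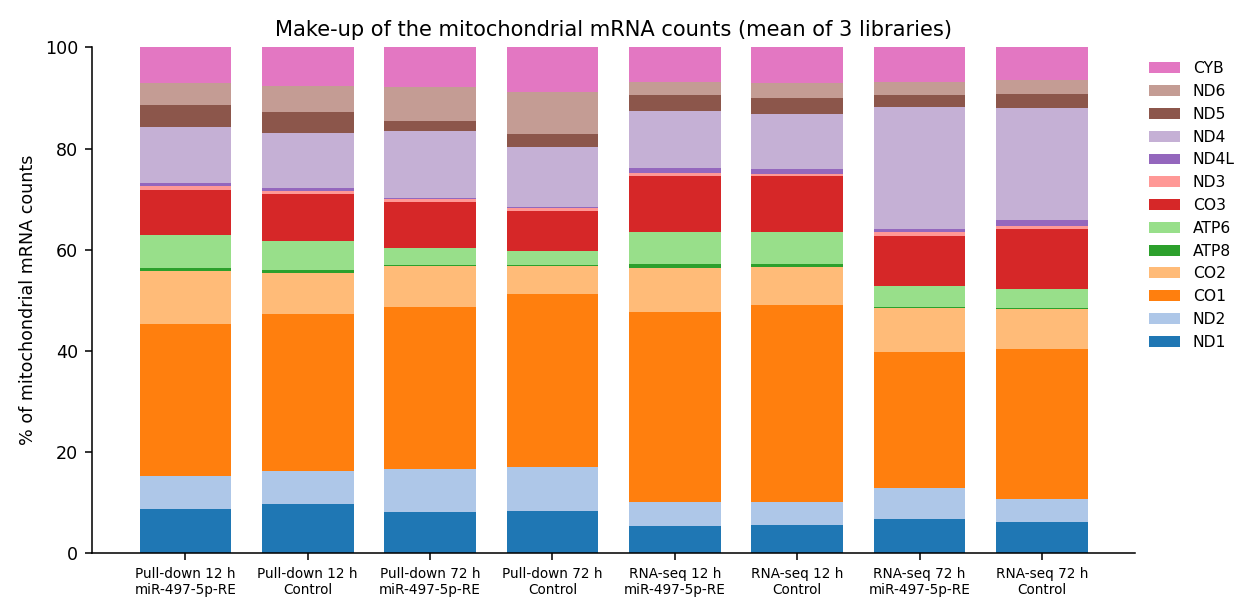
Make-up of the mitochondrial mRNA counts in percent, as the mean of 3 libraries for each of the 8 groups, Pull-down left of RNA-seq. MT-CO1 is the largest part in each group, and MT-ND4 takes a larger part in RNA-seq at 72 h than at 12 h.

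Counts per length put the mRNA genes in order within a group. In RNA-seq with miR-497-5p-RE at 72 h, MT-ND4 at 17019.6 and MT-CO1 at 16917 CPM per kb led with overlapping ranges, and MT-ATP8 was lowest at 1036. The genes joined to MT-ND4 and MT-ATP8 stood elsewhere, MT-ND4L at 2231 and MT-ATP6 at 6096 CPM per kb. The order is therefore one of counts per length and not of mRNA molecules. With Control, MT-CO1 at 11726 CPM per kb stood above MT-ND4 at 9824, and MT-ATP8 was again lowest at 731. The top of the order thus held a single clear leader with Control only. At 12 h MT-CO1 led with either mimic, at 9838 CPM per kb in miR-497-5p-RE libraries and 9068 in Control libraries, and MT-ND3 was lowest, at 646 in miR-497-5p-RE libraries and 542 in Control libraries. In the Pull-down at 72 h MT-CO1 led, at 2647 CPM per kb in miR-497-5p-RE libraries and 2126 in Control libraries, and MT-ND6 was next, at 1614 in miR-497-5p-RE libraries and 1514 in Control libraries. In RNA-seq at 72 h MT-ND6 ranked 9 with miR-497-5p-RE and 8 with Control.

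In the Pull-down at 72 h, MT-CO2, MT-ATP6 and MT-ND3 were called higher with miR-497-5p-RE than with Control, where 10.2% of all 17477 genes tested were called higher. For 9 of the 13 mRNAs the groups did not overlap, beside 17.1% of all genes in that direction. The median log2 fold change of the 13 was 0.39, beside 0 over all genes. Values here are CPM scaled within the Pull-down. MT-CO2 had 1048, 1027 and 1044 CPM in miR-497-5p-RE libraries, against 523, 537 and 531 CPM in Control libraries (log2 fold change 0.97 ± 0.26, adjusted p 0.0252). MT-ATP6 had 434, 409 and 424 CPM in miR-497-5p-RE libraries, against 240.4, 287 and 275 CPM in Control libraries (log2 fold change 0.66 ± 0.14, adjusted p 0.00143). MT-ND3 had 85.9, 92.3 and 84.2 CPM in miR-497-5p-RE libraries, against 47.0, 50.02 and 46.8 CPM in Control libraries (log2 fold change 0.87 ± 0.14, adjusted p 5.31e-05). In each the replicates of a group lay close and the groups far apart, while the spread used by the test came from all 12 Pull-down libraries, 12 h included. The MT-CO2 call ended with no filter (adjusted p 0.0669) and on leaving out any of the 6 libraries of 72 h (adjusted p 0.060 to 0.0782). DESeq2 also called MT-CO3 (adjusted p 0.0472). A fit over both assays of 72 h, chosen after seeing the data, called 9 mRNAs higher, where it called 17.1% of all genes.

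The other 6 mRNAs without overlap had larger log2 fold changes than the 4 with overlap. MT-CO3 had 1162, 1172 and 1156 CPM in miR-497-5p-RE libraries, against 699, 817 and 772 CPM in Control libraries (log2 fold change 0.61 ± 0.24, adjusted p 0.099). MT-ND4 had 1712, 1767 and 1603 CPM in miR-497-5p-RE libraries, against 1131, 1147 and 1152 CPM in Control libraries (log2 fold change 0.57 ± 0.23, adjusted p 0.114). MT-ND2 had 1075, 1133 and 1095 CPM in miR-497-5p-RE libraries, against 794, 844 and 884 CPM in Control libraries (log2 fold change 0.39 ± 0.19, adjusted p 0.172). In these 3 each miR-497-5p-RE library exceeded each Control library. MT-ND1 had 1050.5, 1036 and 1029 CPM in miR-497-5p-RE libraries, against 786, 796 and 802 CPM in Control libraries (log2 fold change 0.39 ± 0.23, adjusted p 0.281). MT-CO1, which holds the GCTGCT match, had 4042, 4024 and 4181 CPM in miR-497-5p-RE libraries, against 3057, 3356 and 3423 CPM in Control libraries (log2 fold change 0.32 ± 0.21, adjusted p 0.34). MT-CYB had 1070.0, 957 and 1013 CPM in miR-497-5p-RE libraries, against 779.8, 879 and 862 CPM in Control libraries (log2 fold change 0.27 ± 0.19, adjusted p 0.364). Those 3 also had groups apart. Groups overlapped for MT-ND4L (0.24 ± 0.18, adjusted p 0.391), MT-ATP8 (0.18 ± 0.17, adjusted p 0.536), MT-ND6 (0.093 ± 0.23, adjusted p 0.849) and MT-ND5 (0.0095 ± 0.17, adjusted p 0.994). MT-ND5 had 236, 261 and 244 CPM in miR-497-5p-RE libraries, against 244, 253 and 239 CPM in Control libraries, so its libraries were mixed. RNAs retained in the nucleus also moved in these libraries. MALAT1 had 17389, 17619 and 19613 CPM in miR-497-5p-RE libraries, against 6940, 6351 and 6018 CPM in Control libraries (log2 fold change 1.50 ± 0.11, adjusted p 5.24e-10). NEAT1 had 167, 156 and 185 CPM in miR-497-5p-RE libraries, against 106, 99.3 and 102 CPM in Control libraries (log2 fold change 0.73 ± 0.11, adjusted p 3.06e-05). Both rose without overlap. In RNA-seq at 72 h the groups were also apart, by less: MALAT1 was not called (0.21 ± 0.12, adjusted p 0.168), and NEAT1 was called (0.085 ± 0.033, adjusted p 0.0272) but turned to -0.022 under library totals. The NEAT1 call also ended under nuclear totals (adjusted p 0.596), with no filter (0.342) and in the fit over both assays (0.268), which called MALAT1 (0.00321). The NEAT1 call ended as well without Control replicate 2 or 3 or miR-497-5p-RE replicate 1 or 2 (adjusted p 0.0546 to 0.105). The part of MALAT1 and NEAT1 in the mitochondrial values was not tested.

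At 12 h in the Pull-down 0 of the 13 mRNAs were called by edgeR, 0 had an unadjusted p under 0.05, DESeq2 called 0, and the groups of all 13 overlapped. Of all genes, 0.595% were called in either direction, and 8.11% had a higher and 8.33% a lower miR-497-5p-RE group without overlap. Log2 fold changes ran between -0.25 for MT-ND1 and 0.30 for MT-ATP8, with a median of -0.06. MT-CO1 had 4332, 2936 and 3846 CPM in miR-497-5p-RE libraries, against 2988, 3542 and 5533 CPM in Control libraries. MT-CO2 had 1545, 894 and 1432 CPM in miR-497-5p-RE libraries, against 711, 983 and 1464 CPM in Control libraries (log2 fold change 0.29 ± 0.26, adjusted p 0.834). The groups were mixed in both, and replicate 3 was the highest of the Control libraries. Without that library the sign turned for 8 of the 13, among them MT-CO1 (0.19) and MT-ND1 (0.061). Without TMM scaling the squamous genes summed to 528, 497.1 and 28.0 CPM in miR-497-5p-RE libraries and 14.8, 116 and 532 CPM in Control libraries in these libraries; their part was not tested. Between times the Pull-down effect differed for MT-ND3 alone (0.64 ± 0.20, adjusted p 0.0336), where 12.2% of all genes were called in either direction, and that call ended under library totals and nuclear totals (adjusted p 0.0633 and 0.0627) and on leaving out any of 9 of the 12 libraries.

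The Pull-down and RNA-seq effects were set against each other in fits over both assays of 1 time, which use the same libraries as the effects above. At 72 h the log2 effect in the Pull-down was smaller than in RNA-seq for 8 mRNAs and larger for 2, where 7.01% and 7.46% of all 16896 genes tested were called smaller and larger. MT-ND2 (-0.74 ± 0.054, adjusted p 4.97e-08), MT-ND6 (-0.58 ± 0.055, adjusted p 1.28e-06), MT-CYB (-0.48 ± 0.063, adjusted p 5.23e-05) and MT-ND1 (-0.45 ± 0.039, adjusted p 5.26e-07) had the largest shortfalls. MT-ND5 (-0.40 ± 0.061, adjusted p 0.000204), MT-ND4 (-0.24 ± 0.048, adjusted p 0.00203), MT-CO1 (-0.23 ± 0.048, adjusted p 0.0028) and MT-ATP6 (-0.22 ± 0.07, adjusted p 0.0418) were also smaller in the Pull-down. MT-CO2 (0.16 ± 0.037, adjusted p 0.00566) and MT-CO3 (0.18 ± 0.056, adjusted p 0.0416), both of complex IV, were larger in the Pull-down. MT-ND3 (-0.027 ± 0.07, adjusted p 0.867), MT-ND4L (0.15 ± 0.13, adjusted p 0.528) and MT-ATP8 (-0.32 ± 0.14, adjusted p 0.176) were not called. Scaling by library totals moved the median of all genes by 0.13, and MT-CO1, MT-ND4 and MT-ATP6 were then not called (adjusted p 0.225, 0.273 and 0.461), nor under nuclear totals (0.0832, 0.126 and 0.254). The calls of MT-ATP6 and MT-CO3 ended on leaving out any of 9 and 10 of the 12 libraries. At 12 h 0 mRNAs were called by edgeR (adjusted p at least 0.657), with 0 under an unadjusted p of 0.05 and 0 by DESeq2, where 1.34% of all genes were called. All 13 values were negative there, between -0.34 and -0.01, with a median of -0.22 beside 0.01 over all genes. Library totals moved the median of all genes by 0.12 at 12 h. The share of all genes with a negative value was not counted, so the shared sign is a description only.

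Set against the input with the same mimic, mitochondrial mRNAs were scarcer in the Pull-down, with miR-497-5p-RE and with Control alike. At 72 h all 13 were lower in the Pull-down with either mimic, where 35.2% of all genes with miR-497-5p-RE and 34.1% with Control were called lower. The median log2 difference of the 13 was -2.80 with miR-497-5p-RE and -2.76 with Control, beside -0.16 and -0.15 over all genes. Another scaling lowered the median of all genes further, by up to 0.36 with miR-497-5p-RE and 0.45 with Control. Values here are CPM scaled over both assays of 72 h. MT-ND4L was the most depleted. With miR-497-5p-RE it had 23.9, 35.4 and 28.2 CPM in the Pull-down, against 532, 541 and 546 CPM in RNA-seq (19.1-fold lower, adjusted p 1.6e-16 in edgeR). With Control it had 28.3, 23.4 and 22.9 CPM in the Pull-down, against 539.7, 531 and 507 CPM in RNA-seq (21.2-fold lower). MT-ND4 followed, 12.0-fold lower with miR-497-5p-RE and 10.1-fold lower with Control. MT-ND4L and MT-ND4 share an mRNA, so their unequal values describe counts per gene and not molecules.

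MT-ND6 was the least depleted. With miR-497-5p-RE it had 807, 776 and 814 CPM in the Pull-down, against 2034, 2053 and 2093 CPM in RNA-seq (log2 difference -1.37 ± 0.04, adjusted p 3.83e-15 in edgeR). With Control it had 751, 804 and 729 CPM in the Pull-down, against 1373, 1271 and 1282 CPM in RNA-seq (-0.78 ± 0.039, adjusted p 8.3e-12). The Pull-down levels of MT-ND6 overlapped between the mimics while its RNA-seq levels did not. Between these ends lay, with miR-497-5p-RE and with Control, MT-ATP8 at -3.19 and -2.87, MT-ATP6 at -3.08 and -2.86, and MT-ND5 at -3.02 and -2.62. The complex IV mRNAs were at -2.46 and -2.23 for MT-CO1, -2.80 and -2.96 for MT-CO2, and -2.83 and -3.01 for MT-CO3. MT-CYB was at -2.49 and -2.01, MT-ND3 at -2.79 and -2.76, MT-ND1 at -2.46 and -2.02, and MT-ND2 at -2.22 and -1.48. MT-ND2 thus differed most between the mimics.

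**Figure D5:**
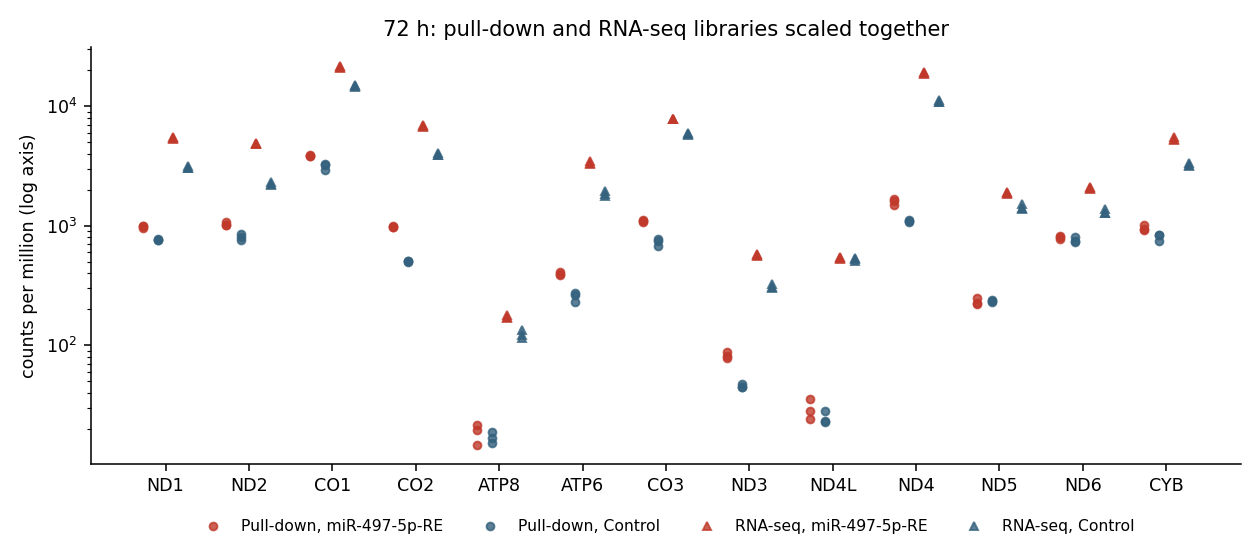
Level of each mitochondrial mRNA at 72 h in CPM on a log axis, Pull-down libraries as circles left of RNA-seq libraries as triangles, miR-497-5p-RE left of Control in each, scaled over both assays. All 13 mRNAs sit lower in the Pull-down; the gap is widest for MT-ND4L and narrowest for MT-ND6.

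At 12 h the difference between assays was smaller. With miR-497-5p-RE all 13 mRNAs were lower in the Pull-down (median -1.43), where 24.6% of all genes were called lower. With Control 11 were lower (median -1.18), where 26.9% of all genes were. MT-ND4L was again the most depleted, at -2.22 ± 0.15 with miR-497-5p-RE and -2.13 ± 0.15 with Control. MT-ND6 (-0.50 ± 0.24, adjusted p 0.113) and MT-ND1 (-0.45 ± 0.23, adjusted p 0.146) did not pass with Control. Both did under library totals (adjusted p 0.0289 and 0.0374), under nuclear totals (0.0240 and 0.0316), with no filter (2.73e-12 and 7.67e-12) and without Pull-down Control replicate 3 (log2 differences -0.86 and -0.79). With miR-497-5p-RE MT-ND6 (-0.77 ± 0.24, adjusted p 0.022) passed, but not without replicate 3 of either assay (adjusted p 0.0526 and 0.0611).

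The 22 tRNA genes were 59 to 75 bases long, shorter than 1 read, and mature tRNAs have no poly(A) tail, so these counts cannot tell mature tRNA from precursor or from reads that run over from a neighbour. Counts were concentrated: 5 genes held 91.4% of them and 13 of 22 had a mean under 100 over the 24 libraries. MT-TL1 (ENSG00000209082, MT 3230 to 3304), a leucine tRNA just ahead of MT-ND1, led with a mean count of 7514, before MT-TC (ENSG00000210140, MT 5761 to 5826, minus strand, cysteine) with 2629 and MT-TN (ENSG00000210135, MT 5657 to 5729, minus strand, asparagine) with 2477.

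In RNA-seq at 72 h 11 tRNA genes were called higher with miR-497-5p-RE, 2 lower and 9 not at all, beside the 27.9% and 29.6% of all genes above; the median was 0.40. MT-TC had 548, 491 and 514 CPM in miR-497-5p-RE libraries, against 194, 196 and 196 CPM in Control libraries (log2 fold change 1.41 ± 0.039, adjusted p 1.31e-31). MT-TN had 387, 415 and 400.1 CPM in miR-497-5p-RE libraries, against 191, 184 and 181 CPM in Control libraries (log2 fold change 1.11 ± 0.05, adjusted p 1.75e-15). MT-TL1 had 721, 742 and 743 CPM in miR-497-5p-RE libraries, against 434, 405 and 419 CPM in Control libraries (log2 fold change 0.81 ± 0.034, adjusted p 7.73e-25). All 3 rose with no overlap, MT-TC by more than any mRNA. MT-TP, the proline tRNA on the minus strand, rose by 0.54 ± 0.05 on the log2 scale (adjusted p 8.92e-13). The 2 lower genes, named after their values were seen, were MT-TL2 (-0.54 ± 0.12, adjusted p 0.000218), the other leucine tRNA, and MT-TG (-0.60 ± 0.20, adjusted p 0.00754), the glycine tRNA, both under 11 CPM in either group. Without miR-497-5p-RE replicate 3 the MT-TG call ended (adjusted p 0.0603). In the fit over both assays of 72 h the calls of MT-TL2 (adjusted p 0.125) and MT-TG (0.564) ended. At 12 h 4 tRNA genes were called higher and 0 lower, beside 7.25% of all genes: MT-TC (0.40 ± 0.05, adjusted p 5.79e-08), MT-TN (0.50 ± 0.054, adjusted p 4.94e-07), MT-TP (0.19 ± 0.054, adjusted p 0.0124) and MT-TQ, the glutamine tRNA (0.83 ± 0.28, adjusted p 0.0452). MT-TQ averaged 0.965 CPM in miR-497-5p-RE libraries and 0.549 CPM in Control libraries. Under library totals and nuclear totals the calls of MT-TP (adjusted p 0.0725 and 0.0626) and MT-TQ (0.0587 and 0.0573) ended, and that of MT-TQ also with no filter (0.0784). The MT-TP call also ended without Control replicate 1 or 3 or miR-497-5p-RE replicate 3 (adjusted p 0.0545 to 0.295), and that of MT-TQ without any 1 library but miR-497-5p-RE replicate 1 (adjusted p 0.0538 to 0.313). In the fit over both assays of 12 h all 4 calls, those of MT-TC, MT-TN, MT-TP and MT-TQ, ended. The effect was larger at 72 h for 8 tRNA genes, where 22.5% of all genes were called larger and 26.2% smaller, led by MT-TC (1.01 ± 0.063, adjusted p 2.95e-18) and MT-TL1 (0.73 ± 0.049, adjusted p 3.05e-17), and smaller for MT-TL2 (-0.67 ± 0.18, adjusted p 0.00199).

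Of 21 tRNA genes tested in the Pull-down at 72 h, 4 were called higher with miR-497-5p-RE and 0 lower, beside 10.2% of all genes. MT-TL1 had 935, 881 and 922 CPM in miR-497-5p-RE libraries, against 387, 416 and 406 CPM in Control libraries (log2 fold change 1.18 ± 0.17, adjusted p 6.01e-05). The groups lay far apart. MT-TC (0.92 ± 0.24, adjusted p 0.00916), MT-TN (0.81 ± 0.20, adjusted p 0.00377) and MT-TV, the valine tRNA (0.99 ± 0.35, adjusted p 0.0426), were the others. The MT-TC call ended without Control replicate 1 (adjusted p 0.0573), and the MT-TV call with no filter (adjusted p 0.0717) and without any 1 library but Control replicate 1 or miR-497-5p-RE replicate 2 (adjusted p 0.0953 to 0.201). At 12 h 0 of 21 were called by edgeR, with 1 under an unadjusted p of 0.05. There MT-TL1 had 106, 65.9 and 109 CPM in miR-497-5p-RE libraries, against 85.0, 104 and 139 CPM in Control libraries, with overlap, and its Pull-down effect was larger at 72 h (1.40 ± 0.24, adjusted p 0.000765). Counts on all tRNA genes made up 8.77, 8.63 and 8.65% of the mitochondrial counts of the Pull-down at 72 h in miR-497-5p-RE libraries, against 5.88, 5.75 and 5.71% in Control libraries. In RNA-seq at 72 h they made up 2.04, 2.00 and 1.98% in miR-497-5p-RE libraries, against 1.65, 1.64 and 1.68% in Control libraries.

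Relative to RNA-seq, MT-TL1 was called higher in the Pull-down at 72 h, where all 13 mRNAs were called lower. With miR-497-5p-RE it had 882, 840.3 and 859 CPM in the Pull-down, against 586, 604 and 605 CPM in RNA-seq (log2 difference 0.52 ± 0.038, adjusted p 1.2e-09 in edgeR). With Control it had 372, 397 and 391 CPM in the Pull-down, against 355, 331 and 341 CPM in RNA-seq (0.17 ± 0.038, adjusted p 0.000642). With miR-497-5p-RE the log2 difference was 0.28 under library totals and 0.17 under nuclear totals. With Control it turned to -0.21 and -0.28, and with no filter it was 0.084 and not called (adjusted p 0.205), so its direction there depends on the scaling. The Pull-down effect of the mimic on MT-TL1 exceeded the RNA-seq effect (0.35 ± 0.053, adjusted p 0.000211). MT-TE, the glutamate tRNA, was the only other one higher in the Pull-down, with miR-497-5p-RE (0.88 ± 0.20, adjusted p 0.000979) and with Control (0.91 ± 0.20, adjusted p 0.000686); it was named after its values were seen, and its call with Control ended under nuclear totals (adjusted p 0.0594). Of all genes 30.6% with miR-497-5p-RE and 29.7% with Control were called higher in the Pull-down. Lower in the Pull-down were 13 of 22 tRNA genes with miR-497-5p-RE and 10 with Control, beside 35.2% and 34.1% of all genes, MT-TN by -2.58 ± 0.073 with miR-497-5p-RE and -2.26 ± 0.073 with Control.

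Nuclear genes that transcribe, process, stabilise, degrade or replicate mitochondrial nucleic acids, or regulate their number, moved both ways. Of 56 listed genes 55 were tested in RNA-seq. At 72 h 17 were called higher and 24 lower with miR-497-5p-RE, beside 27.9% and 29.6% of all genes, and their median log2 fold change was -0.03. At 12 h 5 were higher and 1 lower, beside 7.25% and 5.3% of all genes, with a median of 0.02. POLG, the mtDNA polymerase, had 11.2, 13.9 and 12.0 CPM in miR-497-5p-RE libraries, against 22.3, 24.4 and 23.7 CPM in Control libraries at 72 h (log2 fold change -0.93 ± 0.079, adjusted p 3.63e-14). ESRRA, a nuclear receptor that drives mitochondrial genes, had 94.3, 85.3 and 87.7 CPM in miR-497-5p-RE libraries, against 135, 141 and 135 CPM in Control libraries (log2 fold change -0.62 ± 0.046, adjusted p 5.33e-16). Both fell without overlap. PPRC1, a coactivator related to PGC-1α (-0.78 ± 0.068, adjusted p 7.48e-14), TRMU, which thiolates mitochondrial tRNAs (-0.74 ± 0.056, adjusted p 9.93e-16), and HSD17B10, a subunit of mitochondrial RNase P (-0.57 ± 0.048, adjusted p 1.71e-14), also fell.

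By role, the 72 h counts of higher and lower genes were 1 and 4 of 9 for the transcription machinery, 5 and 4 of 12 for RNA processing, 3 and 3 of 8 for RNA stability, 2 and 1 of 3 for RNA decay, 4 and 8 of 16 for replication and nucleotide supply, and 2 and 4 of 7 for regulators. At 12 h SLIRP (0.34 ± 0.062, adjusted p 8.44e-05) rose and its partner LRPPRC (-0.24 ± 0.053, adjusted p 0.00128) fell. At 72 h both had the opposite sign: SLIRP fell (-0.40 ± 0.061, adjusted p 1.86e-07) and LRPPRC rose (0.52 ± 0.055, adjusted p 2.28e-11). DGUOK, a kinase for mitochondrial deoxynucleosides (0.20 ± 0.039, adjusted p 0.000242), SSBP1, the single-strand DNA binding protein (0.17 ± 0.042, adjusted p 0.00506), and HSD17B10 (0.13 ± 0.042, adjusted p 0.0345) rose at 12 h. At 72 h SSBP1 rose again (0.34 ± 0.045, adjusted p 9.51e-09), while DGUOK (-0.32 ± 0.04, adjusted p 1.57e-09) fell, as did HSD17B10. The 12 h call of HSD17B10 ended under library totals, nuclear totals and no filter (adjusted p 0.109 to 0.210) and on leaving out any 1 library but miR-497-5p-RE replicate 2 (adjusted p 0.0672 to 0.141). In the fit over both assays of 12 h the calls of SLIRP (adjusted p 0.485), DGUOK (0.942), LRPPRC, SSBP1 and HSD17B10 all ended. That fit called 0.0176% of all genes higher. In the Pull-down, 0 of 56 were called at 12 h, and 3 were higher and 13 lower at 72 h, beside 10.2% and 12.6% of all genes.

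The nuclear genome holds copies of mitochondrial sequence, and the files list 399 pseudogenes named for mitochondrial genes, of which 2 had a mean count of at least 100. The 5 with the highest counts lie next to each other on chromosome 1. MTATP6P1 (chr1:633696-634376) led with a mean count of 1606, and 10 of its 681 bases differ from MT-ATP6 (98.5% identical). At 72 h in RNA-seq it had 161, 156 and 148 CPM in miR-497-5p-RE libraries, against 106, 107 and 100.4 CPM in Control libraries (log2 fold change 0.68 ± 0.049, adjusted p 2.07e-14). MTCO1P12 (0.29 ± 0.064, adjusted p 0.000132), MTND2P28 (0.86 ± 0.14, adjusted p 8.36e-07), MTND1P23 (0.89 ± 0.36, adjusted p 0.0298) and MTCO2P12 (0.99 ± 0.39, adjusted p 0.0277) were also called higher. The MTND1P23 and MTCO2P12 calls ended under library totals and with no filter (adjusted p 0.0510 to 0.0609), and on leaving out any of 3 and 4 of the 6 libraries (adjusted p 0.0650 to 0.236). In the fit over both assays of 72 h the calls of MTCO1P12 (adjusted p 0.0607), MTND2P28 (0.139), MTND1P23 (0.482) and MTCO2P12 (0.524) ended. So 5 of these 5 copies were called higher in the main fit, where 27.9% of all genes were. All of these calls but that of MTATP6P1 depend on the settings. Their identity to the genes they resemble was 98.1% to 98.7%, and reads of a copy and of its mitochondrial counterpart can be told apart only where a read covers a differing base. MTATP6P1 was higher at 12 h in RNA-seq (0.25 ± 0.049, adjusted p 0.000627) and at 72 h in the Pull-down (0.81 ± 0.23, adjusted p 0.0112); of the 4 others 0 were called there, and MTCO2P12 was not tested in the Pull-down. The MTATP6P1 call in RNA-seq at 12 h ended in the fit over both assays of that time. The MTATP6P1 call in the Pull-down ended without Control replicate 1 or miR-497-5p-RE replicate 2 (adjusted p 0.0557 to 0.0752).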

How the data were processed

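Members were all genes that the deposited files place on chromosome MT. Per the series' design text and the submitters' processing notes, the authors trimmed read pairs with Trimmomatic 0.36, aligned them to GRCh38 with STAR 2.5.2b and counted uniquely placed reads in exons with featureCounts of Subread 1.5.2. The deposited values are raw counts per gene, 1 file for each of 24 libraries, with no normalization; strand settings are not given in the sources used here. The rRNA genes were not analysed here.

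From these counts, edgeR 4.0.16 in R 4.3.3 was fitted after TMM scaling; genes of low count were removed by filterByExpr, and the quasi-likelihood test was run in its robust form. The 12 libraries of each assay gave miR-497-5p-RE over Control at each time and the difference between times. The 12 libraries of each time gave Pull-down over RNA-seq and the difference between the assays' effects. Benjamini-Hochberg adjustment ran across every gene that passed the filter (17335 in RNA-seq, 17477 in the Pull-down, 17078 at 12 h and 16896 at 72 h), with a threshold of 0.05. The fitting code was run on simulated counts with known changes. Those counts had the same spread for all genes of a fit, so that run checks the code and not these libraries. Shares were compared with exact permutation tests, two-sided. Alternatives were library totals, nuclear totals, DESeq2 1.42.0, no filter, a replicate block and leaving out each library; a fit of the mimic effects over both assays of 1 time was added after seeing the data. Library totals ran from 8262425 to 30650982, and no count of 0 entered a fold that is printed.

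Replicate numbers come from the labels. In RNA-seq at 12 h the deviations of same-numbered libraries of the mimics from their group means had correlations of 0.133, 0.124 and 0.521. Only replicate 3 thus stood out. The main fits and the permutation tests nevertheless did not use the numbers as pairs in any comparison. The replicate block was run as an alternative only.

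Named were all 13 mRNAs, the 3 tRNAs with the highest mean count, up to 4 called tRNAs per comparison, up to 5 listed nuclear genes per RNA-seq comparison by adjusted p and the 5 pseudogenes with the highest mean count. The members and lists were chosen with earlier results of these data known. Sequences are from RefSeq and the GRCh38 reference; gene symbols matched 56410 of 57500 identifiers (98.1%).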

Additional observations from a re-analysis of the deposited data

Results flagged for a closer look

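Effects of the mimic that differed between 12 h and 72 h by edgeR's interaction of mimic and time are given here as log2 differences, 72 h effect minus 12 h effect. In RNA-seq the effect was larger at 72 h for MT-ND1 (0.70), MT-ND2 (0.88), MT-ND3 (0.61), MT-ND4 (0.56), MT-ND5 (0.30), MT-ND6 (0.62) and MT-CYB (0.62). It was also larger for MT-CO1 (0.41), MT-CO2 (0.39), MT-CO3 (0.23) and MT-ATP6 (0.67), and for the tRNA genes MT-TL1 (0.73), MT-TN (0.61) and MT-TC (1.01). For MT-ND4L it was smaller at 72 h (-0.31), although MT-ND4 lies on the same transcript. In the Pull-down it was larger at 72 h for MT-TL1 (1.40) and MT-ND3 (0.64), the MT-ND3 call ending on leaving out most single libraries.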

How the results depend on the processing

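Among mRNA and other named gene values, 2101 kept direction and side of the threshold under an alternative, 133 lost the call, 20 gained it and 37 changed sign. Under library totals and nuclear totals the values with a changed sign were -0.0089 and -0.0035 for MT-ND6 in RNA-seq at 12 h, -0.065 and -0.021 for MT-ND4L at 72 h, 0.028 and 0.027 for MT-ND2, 0.020 and 0.019 for MT-ND4, and 0.050 and 0.049 for MT-ND5 in the Pull-down at 12 h, 0.11 and 0.069 for the MT-ND3 difference between assays at 72 h, and -0.21 and -0.28 for MT-TL1 in Pull-down over RNA-seq with Control at 72 h. NEAT1 in RNA-seq at 72 h was -0.022 under library totals. MT-ND5 in the Pull-down at 72 h was -0.010 with no filter and -0.016 in the fit over both assays. The number of mRNAs called in RNA-seq at 12 h was 6 under library totals, 6 under nuclear totals and 0 in the fit over both assays, which shares the spread of the Pull-down libraries. That fit called 9 in the Pull-down at 72 h, in place of 3. The number called for the Pull-down effect between times, 1, was 0 under library totals, 0 under nuclear totals, 2 with DESeq2 and 2 with no filter. For the difference between assays at 12 h it was 1 with no filter. The Pull-down share at 72 h differed by 0.282 percentage points for mRNAs alone, in place of 0.336. The causes were not tested. Leaving out 1 library gave -0.0021 to 0.067 for MT-ND6 in RNA-seq at 12 h. In the Pull-down at 12 h it gave -0.45 to 0.061 for MT-ND1, -0.24 to 0.21 for MT-ND2, -0.29 to 0.19 for MT-CO1, -0.037 to 0.34 for MT-ATP6, -0.29 to 0.18 for MT-CO3, -0.26 to 0.22 for MT-ND4, -0.25 to 0.26 for MT-ND5, -0.45 to 0.089 for MT-ND6, -0.35 to 0.069 for MT-CYB and -0.19 to 0.29 points for the share. It gave -0.036 to 0.036 for MT-ND5 in the Pull-down at 72 h, 0 to 5 calls between times in the Pull-down, and -0.064 to 0.012 for the MT-ND3 difference between assays. With the replicate block, 10 mRNAs were called in RNA-seq at 12 h, 12 at 72 h, 3 in the Pull-down at 72 h and 9 for the difference between assays at 72 h, where MT-ATP6 was lost (adjusted p 0.0625 in edgeR). In RNA-seq at 12 h the block did not change the number of mRNAs called. What depth limits was not tested beyond the SE given with each value; the lowest count of any mRNA in a library was 114.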
